A study of Mus musculus with 8 samples.

Results

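The genes described here are targets and regulators of the transcription factor p53 and components of the apoptosome, measured in whole mouse brain with and without the protein deacetylase SIRT1. They were chosen by name as Trp53, Cdkn1a, Mdm2, Bax, Bbc3, Ccng1, Apaf1, Casp9 and Plk2. All probe sets with 1 of these names as their only platform gene symbol were taken. This gave 13 of 22626 tested probe sets, for 7 of the 9 named genes and of 12393 genes in all. Trp53 and Bax were not analysed here. Brains came from 3-month-old male C57/B6 mice, 4 with SIRT1 knocked out specifically in the brain (BSKO) and 4 wild-type littermates (WT). Each mouse gave 1 single-channel Affymetrix array. The promoter that drives the deletion and the cells in which it is active are not given in the sources used here.

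p53 is a transcription factor that is stabilised after DNA damage and other stress and then switches on genes for cell cycle arrest and cell death. SIRT1 removes acetyl groups from p53, which is known to lower its transcriptional activity. Cell death through mitochondria starts when BH3-only proteins such as PUMA engage the Bcl2 family. Cytochrome c then leaves mitochondria and binds APAF1, which assembles into the apoptosome and activates caspase-9. In developing brain this route removes surplus neurons, and mature neurons are known to lower APAF1.

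The deposited log2 values were centred on 0 within every probe set. Differences among arrays can be read from them, but not how abundant a transcript is, so the labelled tissue could not be checked from the level of its markers. BSKO 2 stood apart. The SD over all tested probe sets was 0.831 on that array and 0.150 to 0.314 on the other 7. Its 5' probe sets for beta-actin and Gapdh lay -2.44 and -2.43 from their 3' ones, against -0.104 to 0.489 elsewhere. Results are therefore given with 8 arrays and without BSKO 2. The list median of 7 striatal neuron markers ran from -1.94 to 0.01 in WT and from 0.06 to 1.12 in BSKO, and it was higher in replicates 3 and 4 than in 1 and 2 of either genotype. The median of 9 meningeal and fibroblast markers was 0.12 to 0.69 in WT and -0.51 to -0.22 in BSKO. For the other 9 marker lists, microglia, astrocytes, oligodendrocytes and endothelium among them, the genotypes overlapped with 8 arrays. Without BSKO 2 the median of 6 dentate gyrus markers also lay lower on every BSKO array (-0.41 to -0.06, against 0.00 to 0.75 in WT). The probe set for Sirt1 itself differed by -0.50 (SE 0.31), with -1.46 on BSKO 2 and -0.20 to 0.08 on the other BSKO arrays. The part of the gene that was deleted is not given in the sources used here, so this probe set checks no label.

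Apaf1 fell in BSKO brain, by 2.11-fold with 8 arrays and 1.94-fold without BSKO 2, the largest change among the members. With 8 arrays its call was narrow and was lost when any single array other than BSKO 2 was left out. Ccng1 was lower on every BSKO array on 2 of its 3 probe sets. Its gene mean was called lower only without BSKO 2, narrowly, and that call was lost when any further array was left out. Bbc3, which encodes PUMA, lay higher on every BSKO array, far higher on BSKO 2, and did not pass the test over all genes. Cdkn1a and Plk2 were higher in replicates 3 and 4 of both genotypes, and neither was called. Mdm2 stood apart on BSKO 2 alone, and the 2 probe sets of Casp9 went opposite ways.

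Stretches from the promoters of 5 members are shown, 3 for a p53 consensus match and that of Plk2 for a motif of activity-regulated genes. That of Apaf1 is shown as the member that changed most, and its window had no exact p53 match. Sequences and transcript starts are those of RefSeq on GRCm38.p6, and all 9 named genes had at least 1 of 12 windows. Capitals mark the 10-base p53 consensus (the decamer that binds a pair of p53 subunits) in Cdkn1a, Ccng1 and Mdm2, the cAMP response element TGACGTCA in Plk2 and the GC box GGGCGG in Apaf1.
Cdkn1a, chr17:29090869-29090968, plus strand: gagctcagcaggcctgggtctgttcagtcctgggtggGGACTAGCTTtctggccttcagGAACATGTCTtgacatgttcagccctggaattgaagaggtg
Ccng1, chr11:40755422-40755521, minus strand: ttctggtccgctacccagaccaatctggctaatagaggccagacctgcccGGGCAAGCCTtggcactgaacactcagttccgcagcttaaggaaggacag
Mdm2, chr10:117710895-117710994, minus strand: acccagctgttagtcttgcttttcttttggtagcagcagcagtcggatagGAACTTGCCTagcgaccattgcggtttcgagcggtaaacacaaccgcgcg
Plk2, chr13:110394932-110395031, plus strand: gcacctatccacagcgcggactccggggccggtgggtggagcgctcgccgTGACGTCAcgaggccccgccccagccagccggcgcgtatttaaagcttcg
Apaf1, chr10:91082797-91082826, minus strand: cggtcacgcgccGGGCGGggcgcgcgcgcg

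The 250 bases before each transcript start were searched on both strands for exact matches only. The p53 decamer was found in 5 of the 12 windows of the named genes (Trp53, Cdkn1a, Mdm2, Bax and Ccng1) and in 7.13% of all 32851 windows. A pair of decamers at most 13 bases apart stood in 1 window, that of the upstream Cdkn1a start, and in 0.0639% of all. In Cdkn1a the pair began 73 and 51 bases before the start. The bases that directly follow its second decamer, tgacatgttc, miss the consensus by 1 base and were not counted. In Ccng1 and Mdm2 the single exact decamers began 185 and 186 bases before the start. The bases directly before the Ccng1 decamer, agacctgccc, also miss the consensus by 1 base. The cAMP response element was found in Plk2 and in 1.55% of all windows. The GC box was found for 7 of the 9 genes, with no hit in Ccng1 or Trp53, and in 32.7% of all windows. Apaf1 held 2 GC boxes, the one shown and another that began 175 bases before the start. The CArG box of serum response factor, present in 1.47% of all windows, and the E2F sites TTTGGCGC, TTTCGCGC, TTTCCCGC and TTTGCCGC, present in 1.86%, had no match in the named genes. These are matches of letters, and binding was not measured. The windows are short, and known p53 elements of several of these genes lie outside them.

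**Figure D1:**
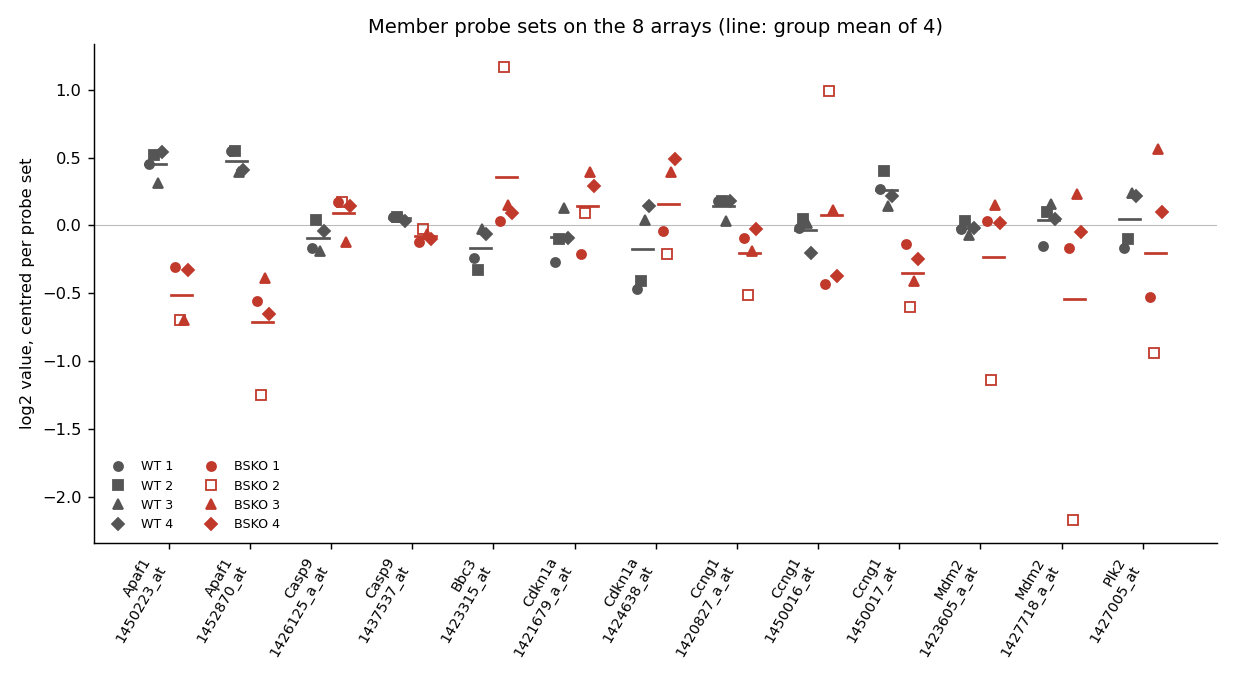
Centred log2 value (vertical axis) of the 13 member probe sets (horizontal axis) on each of the 8 arrays, WT in grey and BSKO in red, with BSKO 2 as open squares and a short line at each mean of 4. Both Apaf1 probe sets separate the genotypes with a wide gap, whereas BSKO 2 lies far from the other BSKO arrays for Mdm2 (-1.14 and -2.17) and Bbc3 (1.17).

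Apaf1 encodes the scaffold of the apoptosome. On probe set 1452870_at the WT values were 0.55, 0.55, 0.39 and 0.41 on WT 1 to 4, and the BSKO values were -0.56, -1.25, -0.39 and -0.65 on BSKO 1 to 4. On probe set 1450223_at they were 0.45, 0.52, 0.31 and 0.54 in WT and -0.31, -0.70, -0.70 and -0.33 in BSKO. Every BSKO array lay below every WT array on both, and the lowest WT and highest BSKO values were further apart than the range within WT. The 2 probe sets moved together (Pearson r = 0.92 over the 8 arrays and 0.91 over 7, a description of 2 probe sets of 1 gene on the same RNA).

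As the mean of its probe sets, Apaf1 was 0.47 ± 0.08 (SD, n = 4) in WT and -0.61 ± 0.25 in BSKO. The difference of -1.08 (SE 0.13, 95% interval -1.38 to -0.78), a 2.11-fold decrease, passed the threshold narrowly over 12393 genes (limma, Benjamini-Hochberg adjusted p = 0.0495). Of all genes 0.0726% were called in this comparison, all of them lower in BSKO, and Apaf1 was the 1 of 7 members among them. On single probe sets the differences were -1.19 (SE 0.18, adjusted p = 0.0733) and -0.97 (SE 0.13, adjusted p = 0.0652). Of all probe sets 0.0309% were called, and 0 of the 13 member probe sets were called by limma. An unadjusted p under 0.05 was reached by 4 of the 13, beside 10.8% of all probe sets.

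Without BSKO 2, Apaf1 had a mean of -0.49 ± 0.06 (SD, n = 3) in BSKO, and the difference was -0.96 (SE 0.07, adjusted p = 0.00232 by limma), a 1.94-fold decrease. Both probe sets passed in this comparison (-1.01, adjusted p = 0.00791, and -0.90, adjusted p = 0.0189). Of all probe sets 1.63% were called without BSKO 2, and of all genes 2.15%. An exact two-sided permutation test of the gene mean gave p = 0.0286 over 70 arrangements of 8 arrays and p = 0.0286 over 35 arrangements of 7, the smallest value that either design allows. With 8 arrays any gene whose genotypes do not overlap gets this p, which held for 13.2% of all genes. With 8 arrays the call was lost when any single array other than BSKO 2 was left out. The adjusted p was 0.246, 0.254, 0.158 and 0.166 without WT 1 to 4, and 0.0695, 0.109 and 0.0756 without BSKO 1, 3 and 4, with differences of -1.14 to -1.05. The gene-level call was kept in each of these when BSKO 2 was left out as well (adjusted p = 0.00438 to 0.0242). So was that of 1452870_at, while 1450223_at lost its call without WT 1 (0.0612), WT 2 (0.0766) or WT 4 (0.0650).

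Set against WT of the same numbers, Apaf1 was -1.22 in replicates 1 and 2, which include BSKO 2, and -0.93 in replicates 3 and 4. Between BSKO 1 and WT 1 it was -0.94. When the median of the striatal markers entered the fit, the difference was -1.07 (SE 0.20, adjusted p = 0.492) with 8 arrays and -0.85 (SE 0.09, adjusted p = 0.0544) without BSKO 2. The difference stayed as large with 8 arrays, and the call was lost in both. In this fit 0 of 12393 genes were called in either comparison, so the loss was not particular to Apaf1. The striatal median itself separated the genotypes on every array. Meningeal markers, and without BSKO 2 dentate gyrus markers, were lower on the same BSKO arrays, and their part in the Apaf1 result was not tested. In whole tissue, fewer cells that express a gene and less RNA per cell cannot be told apart.

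The genes on either side of Apaf1 on the chromosome were not called, and with 8 arrays the genotypes overlapped for the 4 examined. Ikbip, which adjoins the start of Apaf1, had 0.05, 0.01, -0.06 and 0.00 in WT and 0.00, 1.23, -0.23 and -0.04 in BSKO. Without BSKO 2 it differed by -0.09 (SE 0.07, limma adjusted p = 0.515). Slc25a3, the next measured gene, differed by -0.02 (adjusted p = 0.851). On the other side Uhrf1bp1l differed by 0.09 (adjusted p = 0.516) and Actr6 by -0.39 (adjusted p = 0.172). Actr6 was lower on every BSKO array once BSKO 2 was left out.

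The 5 genes whose values were most like those of Apaf1 over the 8 arrays, among all other genes, were Tspan13 (Pearson r = 0.991), Nabp1 (0.990), Folh1 (0.988), Cav1 (0.984) and Dpyd (0.984). Over the 7 arrays without BSKO 2 the same r values were 0.992, 0.987, 0.982, 0.995 and 0.974. All 5 were lower on every BSKO array, by -0.47 for Tspan13, a tetraspanin, -0.90 for Nabp1, which binds single-stranded DNA, -0.93 for Folh1, a glutamate carboxypeptidase, -0.49 for Cav1, the main protein of caveolae, and -1.16 for Dpyd, which breaks down pyrimidines. The 8 points share the genotype split and the libraries, so these r values are a description.

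Casp9 encodes the initiator caspase that APAF1 recruits. On probe set 1437537_at it was 0.06, 0.06, 0.06 and 0.03 in WT and -0.12, -0.03, -0.06 and -0.10 in BSKO. Every BSKO array was lower, by a mean of only -0.13 (SE 0.08, limma adjusted p = 0.550). On 1426125_a_at it was -0.17, 0.04, -0.19 and -0.04 in WT and 0.17, 0.17, -0.12 and 0.14 in BSKO, a difference of 0.18 (SE 0.11, adjusted p = 0.546) with overlap through BSKO 3. The 2 probe sets ran against each other (r = -0.65 over 8 arrays), and their mean differed by 0.02 (95% interval -0.17 to 0.21, adjusted p = 0.894). The interval leaves room for a decrease of the gene mean of up to -0.17 or an increase of up to 0.21.

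Bbc3 encodes PUMA, a BH3-only protein that neutralises the protective members of the Bcl2 family. Its single probe set 1423315_at was -0.24, -0.33, -0.03 and -0.06 on WT 1 to 4 and 0.03, 1.17, 0.15 and 0.09 on BSKO 1 to 4. Every BSKO array was above every WT array, but BSKO 1 exceeded WT 3 by little and BSKO 2 lay far above the rest. The difference was 0.53 (SE 0.25, adjusted p = 0.483 by limma over probe sets) with 8 arrays. Without BSKO 2 it was 0.26 (SE 0.09, 95% interval 0.05 to 0.47, adjusted p = 0.174), or 1.20-fold. The exact permutation p was 0.0286 with 8 arrays and 0.0571 with 7. With the striatal markers in the fit the difference was 0.53 (SE 0.38, adjusted p = 0.606 over genes) with 8 arrays and 0.06 (SE 0.09, adjusted p = 0.850) without BSKO 2. Since the striatal median separates the genotypes, this fit cannot fully part it from genotype. Within replicates 3 and 4 the difference was 0.17, and between BSKO 1 and WT 1 it was 0.27. In WT the 2 arrays of replicates 3 and 4 were 0.23 above those of replicates 1 and 2, nearly the size of the genotype difference.

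**Figure D2:**
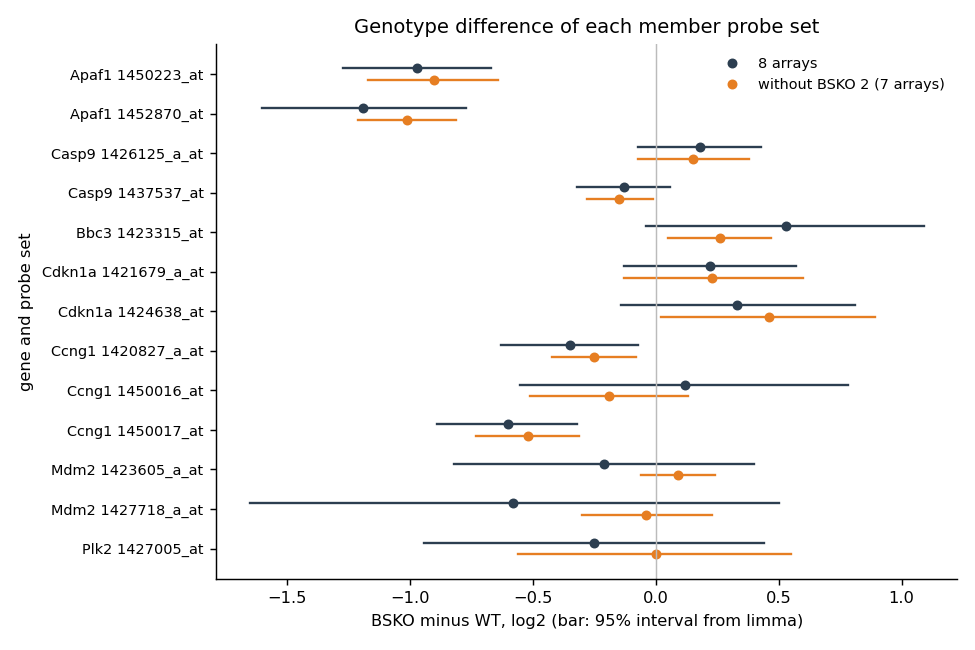
Difference between BSKO and WT in log2 units (horizontal axis) for each member probe set (vertical axis), with its 95% interval from limma, with 8 arrays in dark blue and without BSKO 2 in orange. Only the intervals of both Apaf1 probe sets and of Ccng1 1450017_at and 1420827_a_at lie wholly below 0 in both comparisons, and those of Mdm2 shrink without BSKO 2.

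Ccng1 encodes cyclin G1, a p53 target that takes part in the control of MDM2 by phosphatase 2A. On probe set 1450017_at it was 0.27, 0.40, 0.14 and 0.22 in WT and -0.14, -0.60, -0.41 and -0.25 in BSKO. On 1420827_a_at it was 0.18, 0.18, 0.03 and 0.18 in WT and -0.09, -0.51, -0.19 and -0.03 in BSKO. Every BSKO array lay below every WT array on both, and the pair moved together (r = 0.94 over 8 and over 7 arrays). The third, 1450016_at, was -0.02, 0.05, 0.02 and -0.20 in WT and -0.43, 0.99, 0.11 and -0.37 in BSKO. There the genotypes overlapped and BSKO 2 was the highest array, not the lowest. The platform table lists all 3 under 1 source transcript.

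The difference on 1450017_at was -0.60 (SE 0.12, limma adjusted p = 0.153) with 8 arrays. Without BSKO 2 it was -0.52 (SE 0.09, adjusted p = 0.0398), a 1.43-fold decrease. On 1420827_a_at it was -0.35 (adjusted p = 0.380) and -0.25 (adjusted p = 0.128), and on 1450016_at 0.12 (adjusted p = 0.859) and -0.19 (adjusted p = 0.476). As the mean of all 3, Ccng1 was 0.12 ± 0.07 (SD, n = 4) in WT and -0.16 ± 0.08 in BSKO. The difference of -0.28 (SE 0.09, adjusted p = 0.285) became -0.32 (SE 0.06, adjusted p = 0.0471) without BSKO 2. That call was lost without any further array. The adjusted p was 0.128, 0.142, 0.0878 and 0.0978 without WT 1 to 4, and 0.0520, 0.0778 and 0.134 without BSKO 1, 3 and 4. The probe set call was kept without BSKO 1 (adjusted p = 0.0290) and lost without WT 1 (0.110), WT 2 (0.117), WT 3 (0.0728), WT 4 (0.103), BSKO 3 (0.0810) or BSKO 4 (0.116). With the striatal markers in the fit the gene mean differed by -0.19 (adjusted p = 0.604) with 8 arrays and -0.25 (adjusted p = 0.340) without BSKO 2. The limit of this fit given for Bbc3 holds here too. The nearest measured genes on both sides, Nudcd2 (-0.13), Hmmr (-0.12), Gabra6 (-0.11) and Gabrb2 (-0.24), had overlapping genotypes with 8 arrays. Without BSKO 2 Nudcd2 was lower on every BSKO array (-0.19, SE 0.06, adjusted p = 0.133), and the other 3 still overlapped.

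Cdkn1a encodes p21, the inhibitor of cyclin-dependent kinases through which p53 halts the cell cycle. On probe set 1424638_at it was -0.47, -0.41, 0.04 and 0.14 on WT 1 to 4 and -0.04, -0.21, 0.39 and 0.49 on BSKO 1 to 4. On 1421679_a_at it was -0.27, -0.10, 0.13 and -0.09 in WT and -0.21, 0.09, 0.39 and 0.29 in BSKO. In both genotypes the arrays of replicates 3 and 4 were the higher ones on 1424638_at, and the genotypes overlapped. The mean of the probe sets was -0.37, -0.26, 0.09 and 0.03 in WT and -0.13, -0.06, 0.39 and 0.39 in BSKO. The difference was 0.28 (SE 0.17, 95% interval -0.10 to 0.65, limma adjusted p = 0.499) with 8 arrays and 0.35 (SE 0.16, adjusted p = 0.269) without BSKO 2. It was 0.22 in replicates 1 and 2 and 0.33 in replicates 3 and 4, while within WT replicates 3 and 4 exceeded 1 and 2 by 0.37. With that split as a term, 1424638_at differed by 0.37 and passed without BSKO 2 (adjusted p = 0.0358, range over the alternatives 0.0358 to 0.845). The striatal median was high on the same arrays. With it in the fit the sign of the gene mean turned, to -0.14 (adjusted p = 0.654) with 8 arrays and -0.09 (adjusted p = 0.835) without BSKO 2. That median also separated the genotypes on every array, so this fit cannot fully part it from genotype.

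Plk2 encodes Polo-like kinase 2, which p53 induces and which neurons also make after strong synaptic activity, when it takes part in weakening synapses. Its single probe set 1427005_at was -0.17, -0.10, 0.24 and 0.22 on WT 1 to 4 and -0.53, -0.94, 0.56 and 0.10 on BSKO 1 to 4. Replicates 3 and 4 were above replicates 1 and 2 in both genotypes, by 0.36 in WT. BSKO arrays were both the lowest and the highest. The difference was -0.25 (SE 0.30, limma adjusted p = 0.718) with 8 arrays and 0.00 (SE 0.24, 95% interval -0.56 to 0.55, adjusted p = 0.994) without BSKO 2. It was -0.60 in replicates 1 and 2, -0.37 between BSKO 1 and WT 1 alone, and 0.10 in replicates 3 and 4. With the striatal markers in the fit it was -0.86 (SE 0.35, adjusted p = 0.604 over genes) with 8 arrays and -0.54 (SE 0.26, adjusted p = 0.457) without BSKO 2. Here too the striatal median and genotype cannot be fully parted.

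The 5 genes most like Plk2 over the 8 arrays were Camk1d (Pearson r = 0.987), Lysmd3 (0.982), Nip7 (0.975), Mef2c (0.975) and Smpd4 (0.974), and over 7 arrays r was 0.944 to 0.977. Camk1d is a calcium-dependent kinase and Mef2c an activity-regulated transcription factor of excitatory neurons. All 5 were picked for likeness to Plk2 on these same arrays, so a shared pattern follows from the choice and is a description. For each of them, as for Plk2, the genotypes overlapped. Both arrays of replicates 3 and 4 lay above both of replicates 1 and 2 in either genotype. Camk1d was -0.10, -0.03, 0.23 and 0.11 in WT and -0.51, -0.94, 0.42 and -0.02 in BSKO.

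**Figure D3:**
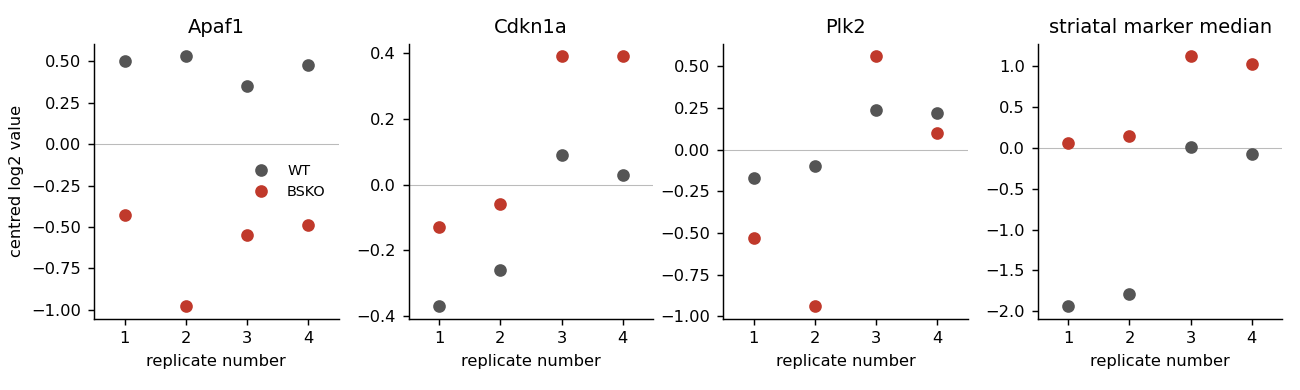
Centred log2 value (vertical axes, which differ between panels) by replicate number (horizontal axis) for the gene means of Apaf1, Cdkn1a and Plk2 and for the median of 7 striatal markers, WT in grey and BSKO in red. Apaf1 splits by genotype at every number, while Cdkn1a, Plk2 and the striatal median are higher in replicates 3 and 4 of both genotypes.

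Mdm2 encodes the ubiquitin ligase that removes p53 and is itself induced by p53. On probe set 1423605_a_at it was -0.03, 0.03, -0.07 and -0.02 in WT and 0.03, -1.14, 0.15 and 0.02 in BSKO. On 1427718_a_at it was -0.15, 0.10, 0.16 and 0.05 in WT and -0.17, -2.17, 0.23 and -0.05 in BSKO. BSKO 2 was far below every other array on both, and the other 3 BSKO arrays lay at or near the WT range. The gene mean differed by -0.39 (SE 0.36, limma adjusted p = 0.622) with 8 arrays and by 0.03 (SE 0.08, 95% interval -0.16 to 0.22, adjusted p = 0.876) without BSKO 2.

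Over the 13 member probe sets the genotypes did not overlap for 6, 5 lower and 1 higher in BSKO, where 12.3% of all probe sets did not overlap, 6.66% lower and 5.67% higher. The 6 belong to 4 genes, since Apaf1 and Ccng1 give 2 each. By gene mean 3 of 7 did not overlap, against 13.2% of all genes. Without BSKO 2 it was again 6 of 13 probe sets, 5 lower and 1 higher, and 3 of 7 genes. The share of all probe sets was then 19.5%, 10.3% lower and 9.21% higher, and that of all genes 20.5%. The members were chosen with earlier results of these data known, so these counts beside the shares of all features are a description. The median difference of the members was -0.21 over probe sets and -0.25 over genes with 8 arrays, and -0.04 and 0.00 without BSKO 2, beside medians of 0.022, 0.030, 0.009 and 0.015 over all features. The 3 with a p53 decamer in the searched window went different ways, with gene mean differences without BSKO 2 of 0.35 for Cdkn1a, 0.03 for Mdm2 and -0.32 for Ccng1.

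Beyond the members, 7 lists of related genes were examined as probe set means, 108 measured genes of 122. None was called by limma with 8 arrays, where 12.2% of all genes had an unadjusted p under 0.05 (21.2% without BSKO 2). Without BSKO 2, 4 were called, 1 higher and 3 lower, or 3.7% beside the 2.15% of all genes. The lists too were chosen with earlier results of these data known, so their shares beside those of all genes are a description. None of the 4 calls was kept without WT 1, WT 2, WT 3 or WT 4 in turn, or without BSKO 3. Of the remaining arrays, leaving out BSKO 1 ended that of Per1, and leaving out BSKO 4 ended those of Casp1, Ddit4 and Per1. Over all genes, the 266 calls made without BSKO 2 became 22, 13, 45 and 31 without WT 1 to 4 as well. They became 814, 59 and 46 without BSKO 1, 3 and 4. With the striatal markers in the fit all 4 calls were lost (adjusted p = 0.336 for Casp1, 0.113 for Ddit4, 0.172 for Per1 and 0.0544 for Bdnf). In that fit 0 of 12393 genes were called, so the loss was not particular to these 4. The largest of the 4 was Casp1, the caspase that matures interleukin-1 and no part of the apoptosome. It was 0.82, 1.22, 0.39 and 0.40 in WT and -1.14, -0.64, -0.39 and -0.39 in BSKO. Every BSKO array lay below every WT array, and the 8-array difference was -1.35 (SE 0.23, adjusted p = 0.0895). Without BSKO 2 it was also -1.35 (SE 0.26, adjusted p = 0.0431), and 0.0403 to 0.119 with a further array left out. Meningeal markers were lower on the same arrays, microglial markers overlapped (-0.09 to 0.12 in WT and -0.19 to 0.21 in BSKO), and their part was not tested.

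Of the 19 measured p53 targets for cell cycle arrest, DNA repair and metabolism, 7 were higher and 12 lower in BSKO with 8 arrays, with a median of -0.08. Ddit4, which encodes the mTORC1 inhibitor REDD1, was 0.13, 0.27, 0.46 and 0.33 in WT and -0.21, -0.27, -0.13 and -0.16 in BSKO. It differed by -0.49 (SE 0.10, limma adjusted p = 0.118) and fell without BSKO 2 (-0.47, SE 0.08, adjusted p = 0.0381, and 0.0441 to 0.114 with a further array left out). It was the 1 gene of the 19 called there. Btg2, an antiproliferative gene that neurons also induce by activity, differed by -0.85 (adjusted p = 0.314) and overlapped through BSKO 3. Sfn, which encodes 14-3-3 sigma, was 0.42 higher with no overlap (adjusted p = 0.356). Unadjusted p was under 0.05 for 4 of the 19 with 8 arrays.

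Of 10 measured p53 targets for cell death, 5 were higher and 5 lower. Casp1 was the 1 called without BSKO 2. Fas, a death receptor gene, differed by -0.37 with every BSKO array below every WT array (limma adjusted p = 0.319), and Pmaip1, which encodes the BH3-only protein NOXA, by -0.47 with overlap (adjusted p = 0.432). Thus NOXA lay on the lower side and PUMA on the higher, neither of them called. Of 16 measured p53 regulators 8 were higher and 8 lower, with none called by limma in either comparison and 0 and 1 at an unadjusted p under 0.05. The smallest p were those of Sirt1 (-0.50), Trp63 (-0.14, adjusted p = 0.531) and Atr (0.20, adjusted p = 0.540).

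None of the measured partners of APAF1 was called. Of 17 genes for cytochrome c, caspases, inhibitors of apoptosis and nucleases, 6 were higher and 11 lower, with a median of -0.05 and none called by limma in either comparison (0 and 1 at an unadjusted p under 0.05). The smallest p were those of the chaperone genes Hspa8 (-0.19, every BSKO array below every WT array, adjusted p = 0.411) and Hsp90aa1 (-0.19, adjusted p = 0.489) and of the mitochondrial nuclease gene Endog (0.40, adjusted p = 0.503). Of 15 Bcl2 family genes 8 were higher and 7 lower, with a median of 0.04 and none called (0 and 1 at an unadjusted p under 0.05). Mcl1, a protective member, differed by -0.22 with no overlap (adjusted p = 0.449) and the BH3-only gene Bcl2l11 by -0.17 (adjusted p = 0.476).

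Plk2 was set beside 21 measured Polo-like kinase and activity-induced genes, of which 14 were higher and 7 lower with a median of 0.22. Without BSKO 2 the median was 0.06, and 2 of the 21 were called in opposite directions. The clock gene Per1 was 0.35 higher (SE 0.07, limma adjusted p = 0.0497, and 0.0561 to 0.144 with a further array left out). The neurotrophin gene Bdnf differed by -0.73 (SE 0.10, adjusted p = 0.0232, and 0.0251 to 0.0679 with a further array left out). Of 16 measured E2F targets and proliferation genes 10 were higher, where 54.8% of all genes were higher. Their median was 0.23 with 8 arrays and 0.04 without BSKO 2. For 5 of the 16 every BSKO array lay above every WT array, beside 6.4% of all genes. None of the 16 passed by limma, with 6 and 7 at an unadjusted p under 0.05. Top2a, a topoisomerase of dividing cells, was -0.14, -0.10, -0.27 and -0.11 in WT and 1.00, 1.16, 0.74 and 0.14 in BSKO, a difference of 0.92 (SE 0.20, adjusted p = 0.153). Cdk4, the kinase of early G1, differed by 0.35 (adjusted p = 0.203) and E2f1 by 0.42 (adjusted p = 0.262). E2F1 is known to induce Apaf1.

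**Figure D4:**
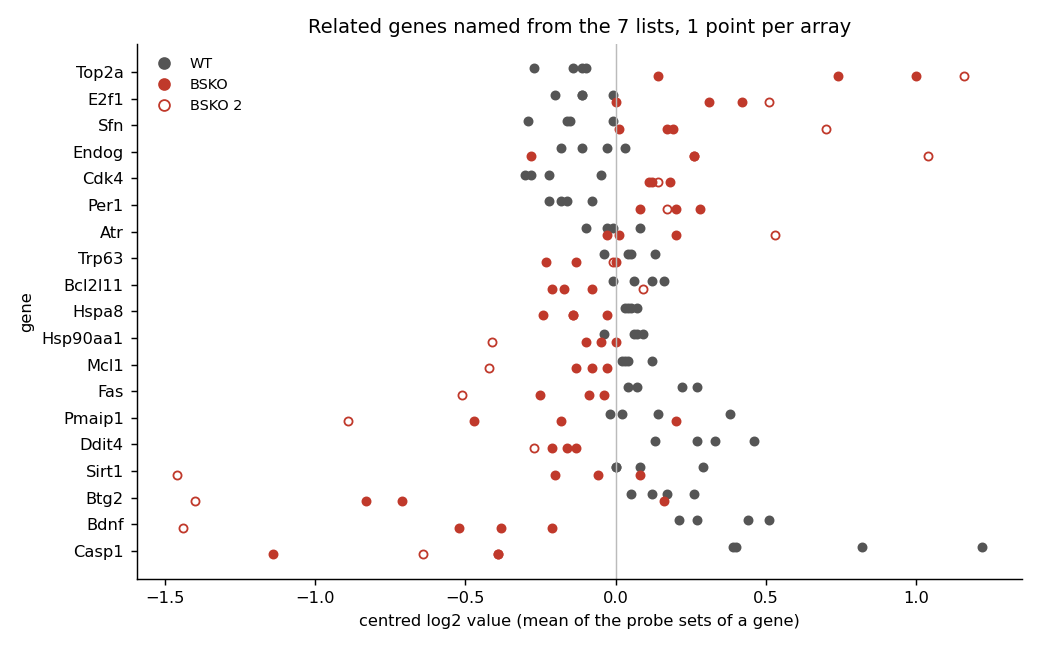
Centred log2 values (horizontal axis) of the 19 related genes named from the 7 lists (vertical axis, ordered by the 8-array difference), 1 point per array, WT in grey, BSKO in red and BSKO 2 open. Casp1 and Bdnf at the bottom and Top2a and Cdk4 near the top separate the genotypes, whereas for Btg2, Sirt1 and Pmaip1 they overlap.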

How the data were processed

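The deposited table holds log2 values that the authors made with RMA, per the submitters' processing notes. Its version is not given in the sources used here. For each probe set, the median over the 8 arrays was taken, and it lay within 1e-05 of 0 in 22689 of 22690 cases, a centring that no label records. The 64 control probe sets were left out. Symbols came from the platform annotation, checked by gene number against RefSeq GRCm38.p6. BSKO was set against WT with limma 3.58.1 (lmFit, eBayes, two-sided; R 4.3.3), once for single probe sets and once for genes as probe set means, with Benjamini-Hochberg adjustment over everything tested and a threshold of 0.05. No filter was used. The scripts were tested on simulated data. Figures used matplotlib 3.10.9.

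The members and lists were chosen with earlier results of these data known. Named are all members, list genes called in either gene-mean comparison, filled up to 3 per list by the smallest p, and 5 genes most like Apaf1 and Plk2. Neighbouring genes, chosen by position, were added later. Labels call the mice biological replicates. The number of arrays limits the precision. Alternatives were quantile normalization, centring of arrays, a replicate block, a term for replicates 3 and 4, trend and robust eBayes and array weights. Others were a striatal covariate, each array left out, 1 probe set per gene and a threshold of 0.10. A further alternative left out the probe sets with names ending in _x_at, _s_at or _a_at. A filter on low values was not run, since centred values carry no brightness.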

Additional observations from a re-analysis of the deposited data

Results flagged for a closer look

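Among 36 groups of 4 arrays (13 probe sets and 5 gene means in each genotype), 6 held an array far from the other 3, where chance gives about 1 in 20. In 4 of the 6 it was BSKO 2. Mdm2 was -1.14 there on 1423605_a_at (other BSKO arrays 0.02 to 0.15), -2.17 on 1427718_a_at (-0.17 to 0.23) and -1.65 as the gene mean (-0.07 to 0.19). Bbc3 was 1.17 there (0.03 to 0.15). Ccng1 1420827_a_at was 0.03 on WT 3 with the other WT arrays at 0.18, and Casp9 1426125_a_at was -0.12 on BSKO 3 with the others at 0.14 to 0.17.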

How the results depend on the processing

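Apaf1 was lower in BSKO under all alternatives run, by -1.25 to -0.96 as the gene mean with 8 arrays and -1.01 to -0.85 without BSKO 2. Its call at a threshold of 0.05 was not kept throughout. With 8 arrays, 1 member gene was called and the count was 0 with each array centred, with the replicate block, with the striatal covariate and with 1 probe set per gene, 2 with array weights (Apaf1 and Ccng1), and 0 to 2 when single arrays were left out. Of the member probe sets 0 were called with 8 arrays, against 2 at a threshold of 0.10, 3 after quantile normalization, 1 with a term for replicates 3 and 4, 2 with trend and robust settings, 3 with array weights, and 0 to 3 when single arrays were left out. Without BSKO 2, 2 genes and 3 probe sets were called, and 0 and 0 with the replicate block or the striatal covariate. Apaf1 alone (1 gene) was called after quantile normalization, without probe sets named _x_at, _s_at or _a_at, and with 1 probe set per gene. Leaving out a further array gave 1 gene and 1 to 3 probe sets. Same-numbered arrays of the genotypes deviated together with r of 0.0858, 0.0562, 0.14 and 0.129, so the numbers were not taken to pair the mice. Under the block Apaf1 differed by -1.08 (adjusted p = 0.117) with 8 arrays and -0.93 (adjusted p = 0.0606) without BSKO 2. Array weights gave BSKO 2 a weight of 0.0456 and BSKO 4 one of 3.69, and they raised the calls over all probe sets from 7 to 2617, quantile normalization to 678 and trend and robust settings to 108. Of the 108 related genes, 0 were called with 8 arrays, 6 after quantile normalization and 12 with array weights. Without BSKO 2, 4 were called, 0 with the block or the striatal covariate, 14 with array weights, and 0 to 6 with a further array left out. What makes these counts differ was not tested, except that fewer arrays or more terms leave fewer degrees of freedom. No filter on low values could be run on centred values.

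The signs that turned were of differences not called. With the striatal covariate Cdkn1a was -0.07 (1421679_a_at), -0.20 (1424638_at) and -0.14 (gene mean) with 8 arrays and -0.09, -0.08 and -0.09 without BSKO 2, and the Mdm2 gene mean was -0.06 without it. With 8 arrays Mdm2 1423605_a_at was 0.02 after quantile normalization, 0.05 with array weights and -0.34 to 0.09 with single arrays left out, and the Mdm2 gene mean -0.59 to 0.03. Ccng1 1450016_at was -0.11 and -0.29 under the first 2 of these and -0.19 to 0.28 with single arrays left out, and Ccng1 by its most variable probe set was 0.12. Without BSKO 2 the Mdm2 gene mean was -0.01 after quantile normalization and with array weights, -0.04 by its most variable probe set and -0.05 to 0.08 with a further array left out, where 1427718_a_at was -0.15 to 0.05. Casp9 without probe sets named _x_at, _s_at or _a_at was -0.13 with 8 arrays and -0.15 without BSKO 2. Also without BSKO 2, Casp9 was -0.00 with each array centred, and -0.02 to 0.04 with a further array left out. Plk2 without BSKO 2 was 0.01 with array weights and -0.27 to 0.28 with a further array left out.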
